A study of Homo sapiens with 3 samples.

Results

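Processed pseudogenes of ribosomal protein genes were examined in RNA-seq of HEK293T, an established line of human embryonic kidney cells expressing the SV40 large T antigen. Members were all genes that GENCODE v44 annotates as processed pseudogene or transcribed processed pseudogene and whose symbol is that of a ribosomal protein gene followed by P and a number, as in RPL36AP37, a copy of RPL36A. This rule, which uses no measured value, found 1581 members among 61193 genes, 1523 of them annotated as processed pseudogene and 58 as transcribed processed pseudogene. They fell into 78 families by parent gene, 1094 members from 47 parents of the large subunit (RPL and RPLP) and 487 from 31 parents of the small subunit (RPS and RPSA). One of the parents, RPL7L1, takes part in building the large subunit and is not a protein of the mature cytosolic ribosome. All 3 biological replicates are of 1 condition, HEK293T cells for which no treatment is named, collected 24 hours after seeding, with 3000000 cells and 2 µg of total RNA per library. Libraries were QuantSeq 3′ mRNA-seq, which is primed at the poly(A) tail and reads the 3′ end of each transcript. As there was no second condition, no condition was compared, and the spread given is that between the replicates.

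A processed pseudogene arises when an mRNA is reverse transcribed by the LINE-1 machinery and the cDNA is inserted elsewhere in the genome. The copy has no introns, often ends in a run of A, and usually has no promoter of its own, so that it collects mutations over evolutionary time. Ribosomal protein mRNAs are short and abundant in every growing cell, germ line included, and their genes are the parents of the largest group of processed pseudogenes in the human genome. A read from a recent copy can match the parent mRNA base for base, so reads of the copy and of the parent cannot be told apart where the sequence is the same.

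The likeness is visible in the last 90 coding bases, the part of the coding region closest to the poly(A) tail. In all, 37 of the 1581 members matched these bases of their parent exactly. The sets below are shown because each holds a member with more counts than its parent, and the RPS26 set also members with few or no counts. RPS26, a protein of the small subunit at the mRNA exit, lies at chr12:56041351-56044697 (plus strand), and its copies at chr13:100539901-100540248 (RPS26P47, minus), chrX:24429573-24429920 (RPS26P58, minus) and chr12:69422656-69422995 (RPS26P45, plus). RPS19, a small subunit protein whose gene is mutated in Diamond-Blackfan anaemia, lies at chr19:41860255-41872925 (plus) and its copy RPS19P3 at chr14:34568689-34569129 (minus). RPL10, which is placed late in the assembly of the large subunit, lies at chrX:154389955-154409168 (plus), RPL10P3 at chr9:117180628-117181095 (minus) and RPL10P16 at chr19:12643275-12643919 (minus). All positions are GRCh38 with GENCODE v44, sequences run 5′ to 3′ on the strand of the gene, and capitals mark bases that differ from the parent.
RPS26: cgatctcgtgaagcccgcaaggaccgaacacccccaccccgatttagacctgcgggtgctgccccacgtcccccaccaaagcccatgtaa
RPS26P47: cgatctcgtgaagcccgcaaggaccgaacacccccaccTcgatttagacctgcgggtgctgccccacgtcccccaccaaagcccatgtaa
RPS26P58: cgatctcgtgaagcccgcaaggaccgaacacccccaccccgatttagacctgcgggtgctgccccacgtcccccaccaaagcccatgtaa
RPS26P45: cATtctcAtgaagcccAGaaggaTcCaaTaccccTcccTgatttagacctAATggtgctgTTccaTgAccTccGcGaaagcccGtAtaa
RPS19: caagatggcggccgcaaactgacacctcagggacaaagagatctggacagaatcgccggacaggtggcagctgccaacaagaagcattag
RPS19P3: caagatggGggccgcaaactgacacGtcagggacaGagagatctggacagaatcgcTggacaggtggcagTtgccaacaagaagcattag
RPL10: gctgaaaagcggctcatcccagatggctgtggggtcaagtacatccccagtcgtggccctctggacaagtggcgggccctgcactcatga
RPL10P3: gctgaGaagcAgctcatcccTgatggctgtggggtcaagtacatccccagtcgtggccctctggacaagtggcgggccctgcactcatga
RPL10P16: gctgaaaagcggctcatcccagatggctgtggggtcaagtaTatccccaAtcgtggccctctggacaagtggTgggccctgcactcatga

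RPS26P47, with 1 substitution, had 3629, 11 and 810 counts in the 3 replicates (mean 1483, and 410.5 without replicate 1). RPS26P58, with 0, had 14, 19 and 19, so the 2 overlapped, with RPS26P47 the lower in replicate 2, and RPS26P45, with 22 and 1 missing base, was at 0. RPS19P3 carried 5 substitutions spread over the stretch and held 6707 counts. RPL10P3 and RPL10P16 carried 3 each, and held 2313, 5003 and 2610 counts and 1362, 721 and 797 counts. The parents RPS26 and RPL10 had means of 2.67 and 0.333 counts, and RPS19 had 524, 469 and 474 counts.

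The libraries held 7019253, 6262175 and 8521624 counts in replicates 1, 2 and 3, so that a count of 0 allows up to 3 counts, or between 0.352 and 0.479 CPM (counts per library scaled as TPM is, without division by length), for counting error only. Genes of the mitochondrial genome took 9.59%, 5.70% and 25.8% of these counts, which lowers the TPM of all nuclear genes in replicate 3. The library totals are counts assigned to transcripts, and are below the number of reads per sample that the methods of the study state. TPM is the count divided by transcript length and rescaled to a fixed total per library. Of the markers listed for HEK293T, IGF2BP1 had a mean of 232 TPM, LIN28B 40.8 TPM and PAX2 8.96 TPM, whereas VIM had 0, 6 and 5 counts and NEFM had 0 counts. Of the markers of other cell types, PTPRC, ALB and HBB were at 0 counts, PECAM1 had at most 2 counts, and COL1A1 had a mean of 24.8 TPM. Counts were made per transcript, and how reads on several overlapping transcripts were counted is not given. A low count of a marker, of a parent, or of a gene around a member therefore does not show that the gene is silent.

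Together the members held 260363, 239146 and 299671 counts, or 3.71%, 3.82% and 3.52% of all counts (3.68% ± 0.153, SD, n = 3). On the TPM scale they held 13.5%, 14.7% and 10.5% (12.9% ± 2.16). Replicate 3 was the lowest on both scales. With mitochondrial genes left out of the total, the shares of TPM were 17.5%, 17.4% and 18.9% and replicate 3 was the highest. The members are short, with a median length of 471 bases, and their share of TPM was correspondingly larger than their share of counts. Large subunit members held 2.47% ± 0.217 of all counts and small subunit members 1.21% ± 0.0686. The members annotated as transcribed held 942, 878 and 1033 counts in all.

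A mean TPM of at least 1 was reached by 857 members, 54.2% of them. The background for this threshold was 21.7% of all genes and 14.7% of the 9059 processed pseudogenes of other parents. As TPM divides by length, a short member can reach 1 TPM on few reads, as RPLP2P1 did with 3, 0 and 5 counts (mean 1.38 TPM). At 1 CPM, without division by length, 568 members remained, and the share of all genes is not given on that scale. By replicate, 836, 874 and 802 members reached 1 TPM, 53.0% ± 2.28 (SD, n = 3), against 14.7% ± 1.13 of the other processed pseudogenes. The share of members was higher in 3 of 3 replicates, with a difference of 38.2 ± 1.24 percentage points. An exact paired permutation test over the replicates gave a two-sided p of 0.25, the smallest that 3 pairs allow, so the design cannot reach 0.05. A mean of at least 10 TPM was reached by 336 members, at least 100 TPM by 100 and at least 1000 TPM by 20. No background was taken at these levels. At the other end, 293 members (18.5%) had 0 counts in every replicate, against 63.3% of the processed pseudogenes of other parents. At most 3 counts in every replicate were found for 709 members, those at 0 included, and levels this low are uncertain at this depth. Counts in every replicate were found for 934 members, and at least 10 counts in every replicate for 427.

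The counts were concentrated in few members. The 10 members with the highest mean counts held 54.2% ± 1.08 of the counts of all members, the first 45 held 81.5% ± 0.301 and the first 100 held 91.7% ± 0.287. RPL36AP37 alone held 24.1% ± 2.17. Of the 100 genes highest in mean TPM, 19 were members, and of the 1000 highest, 93 were, while members made up 1581 of all 61193 genes. TPM divides by length, although these libraries read only the 3′ end, which raises short genes in this ranking. Ranks of all genes by counts are not given. The 9059 processed pseudogenes of other parents gave 13 of the first 100. They held 2.17% ± 0.261 of all counts and 8.10% ± 1.75 of TPM.

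RPL36AP37 had 63820, 62293 and 65206 counts and 43814, 50616 and 30457 TPM. By mean TPM, which divides by length, it ranked 2 of all genes. It lies in an intron of PLEKHA7, on the same strand, and PLEKHA7 itself had 5, 3 and 8 counts, with the limit given above for low counts. RPL3P4, a copy of part of RPL3, which lies near the peptidyl transferase centre, followed with 7185, 8187 and 6074 TPM. RPS15P4 had 4719, 5534 and 5877 TPM, and its parent encodes a protein of the small subunit head. Replicate 3 was the lowest for RPL36AP37 and RPL3P4 and the highest for RPS15P4. RPL15P3 had 4885, 5561 and 3442 TPM, RPS23P8 had 2754, 3041 and 3554 TPM and RPS18P5 had 3238, 3177 and 2799 TPM. RPS23 reaches the decoding centre, and RPS18 is part of the small subunit head. The gap between RPL36AP37 and RPL3P4 was larger than the spread between replicates, and the replicates of the 2 did not overlap. RPS15P4 and RPL15P3 overlapped, as did RPS23P8, RPS18P5 and RPS19P3.

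**Figure D1:**
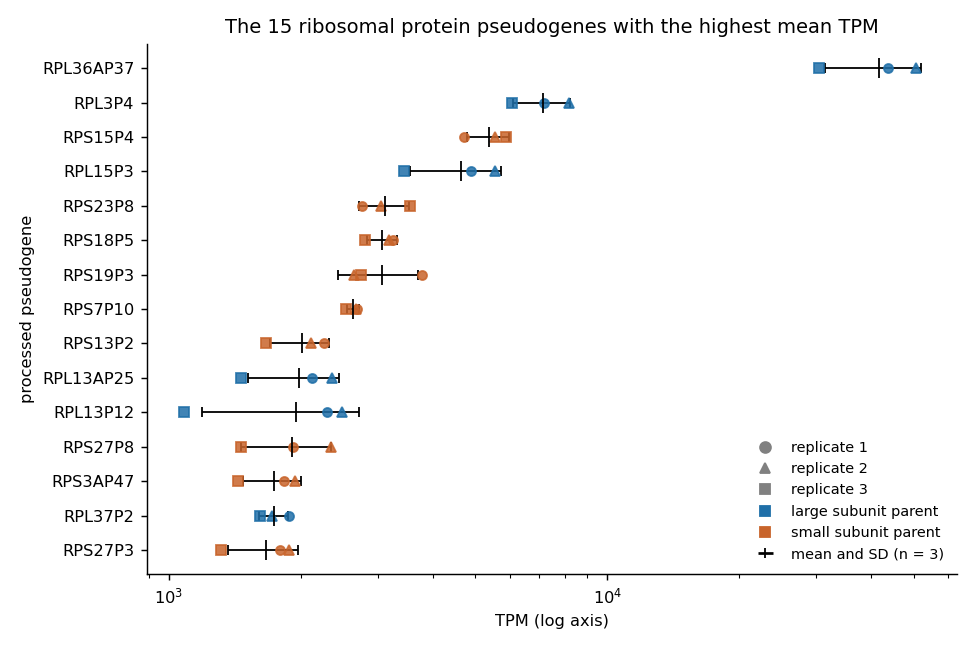
TPM of the 15 members with the highest mean TPM in HEK293T cells (log axis). Symbols are the 3 replicates, colours the subunit of the parent, and bars the mean and SD (n = 3). RPL36AP37 lies between 30457 and 50616 TPM, apart from the other 14, and RPS7P10 has the narrowest spread of the 15.

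RPS19P3 had 3788, 2647 and 2742 TPM, from 7581, 4476 and 8065 counts. It lies in an intron of SNX6 on the same strand, and SNX6 had 4, 3 and 0 counts. Only 7.06% of its 31-base words occur in any protein-coding transcript, and 86.4% occur in no protein-coding transcript and no other member. RPS7P10 had 2684, 2679 and 2529 TPM. The remaining members of the first 15 were RPS13P2, RPL13AP25, RPL13P12, RPS27P8, RPS3AP47, RPL37P2 and RPS27P3, with means of 1666 to 2013 TPM. Among these, RPL13P12 differed most between replicates, with 2292, 2487 and 1081 TPM, while RPL37P2 had 1877, 1720 and 1616 TPM. RPL13A, the parent of RPL13AP25, encodes a protein that also binds certain mRNAs in the interferon response, and RPS27 and RPL37 encode proteins with zinc fingers.

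The level of a member went with its likeness to the parent mRNA. Identity was taken over the bases that aligned with the parent's canonical transcript, and its median over all members was 88.7% (quartiles 83.0% and 92.8%). Members with 0 counts had a median identity of 82.6%. It was 85.7% for members with a mean of up to 3 counts, 89.4% from 3 to 10, 92.1% from 10 to 100, 95.3% from 100 to 1000 and 97.7% for the 45 members above 1000. Read the other way, a mean TPM of at least 1 was reached by 18.7% of the 219 members under 80% identity, 75.9% of the 456 between 90% and 95%, and 96.1% of the 76 at 98% or more. These 76 held 56.1% of the counts of all members. Across all 1581 members, Spearman's rho between identity and log10 of mean counts plus 1 was 0.627. Within the 10 largest families rho lay between 0.439 (RPL23A) and 0.807 (RPL17). Members share parents and libraries and are not independent. The length of a member (rho = 0.0757) and the share of A in the 30 bases after its annotated end (rho = 0.0658) went little with its counts.

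**Figure D2:**
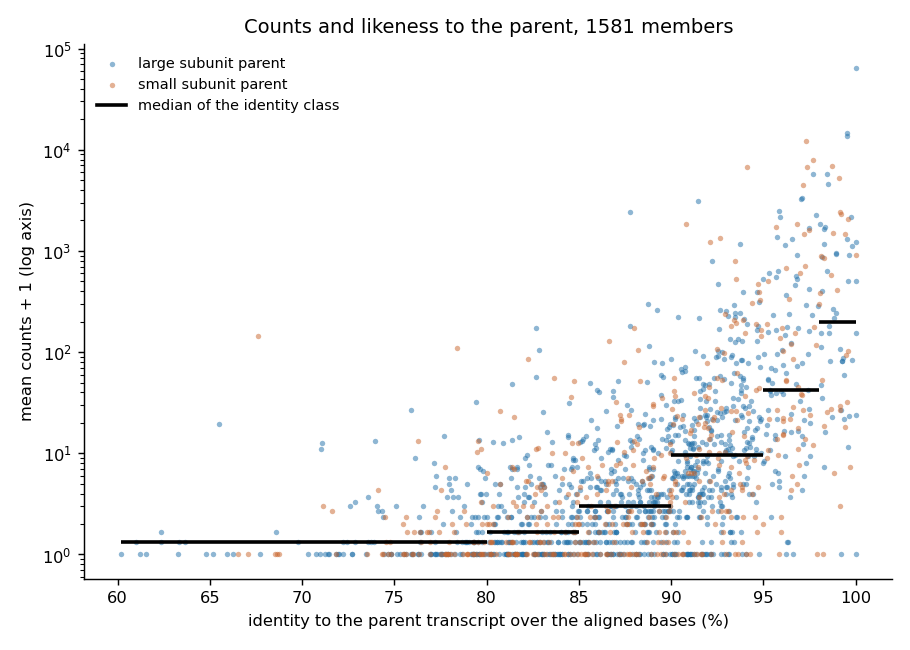
Mean counts plus 1 (log axis) of each of the 1581 members against its identity to the parent transcript over the aligned bases, coloured by the subunit of the parent. Black lines are the medians of 6 identity classes, from 0.333 counts under 80% to 196.5 counts at 98% or more, and single members of one class differ by orders of magnitude.

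Identity alone left a wide range of levels. The members at 98% or more ran from 0 to 63773 mean counts, with 20 at 1000 or more and 7 at 10 or fewer. Only 6 members were identical to the parent over at least 95% of its coding bases. RPL36AP37 was the highest of them. RPL21P16 had 1232, 1147 and 1321 counts, RPS28P7 had 884, 743 and 1087, and RPL39P3 had 401, 362 and 735. RPL41P1, a copy of the gene of the shortest ribosomal protein, with 25 codons, had 77, 358 and 27 counts (mean 154, and 52 without replicate 2), and RPL41P5 had 31, 20 and 18. The lowest identity among the 45 members above 1000 counts was 87.8%. That member was RPL11P3, a copy of RPL11, whose protein can bind MDM2, with 2418, 2340 and 2471 counts. It was chosen after its values were seen.

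A stricter measure is the share of a member's 31-base words that also occur in a transcript of a protein-coding gene. Of the members, 431 (27.3%) shared no such word, and the median over all members was 3.49%. Among members with 0 counts the median share in transcripts of the parent was 0%, and among those above 1000 counts it was 50.8%. Yet 19 of these 45 had over 50% of words that occur in no protein-coding transcript and no other member.

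The 431 members without a shared word held 0.498% of the counts of all members. Of them, 117 (27.1%) reached 1 TPM, near the 21.7% of all genes that did. None had a mean above 1000 counts. RPL8P1 was the highest of them, with 187, 161 and 198 counts. RPL37P1 had 106, 95 and 140 counts. Both lay outside annotated protein-coding and long non-coding genes. RPS12P16 had 62, 47 and 54 counts in an intron of PARD3, which had 0 counts, and RPL39P29 had 34, 49 and 42 in an intron of FGF14, also at 0. RPL32P32 had 32, 23 and 39 counts, in an intron of USP32, which had 355, 364 and 423 counts. RPS29P19, RPL37P12, RPS29P7 and RPL35AP20 had means of 18 to 26.7 counts. The counts of these members were above 3 in every replicate.

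Members with an open reading frame of at least 95% of the parent's codons numbered 130 (8.22%), and they held 60.3% of the counts of all members. A mean TPM of at least 1 was reached by 88.5% of them and by 51.1% of the others. Of the 10 members with the highest mean counts, RPL3P4 and RPS3AP47 had no such frame. Only 6 of the 293 members with 0 counts had one, against 22 of the 45 above 1000 counts. The parent's stop codon was covered by 805 members (50.9%), which held 83.7% of the counts. Reading frame, cover of the stop codon and identity all went with the counts, and they were not separated.

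Position in other genes also went with the counts. Outside annotated protein-coding and long non-coding genes lay 718 members, of which 57.4% reached 1 TPM and 16.2% had 0 counts. In introns, 317 members lay on the strand of the gene, 56.2% of which reached 1 TPM, and 443 on the opposite strand, with 50.6%. Of the 40 members that overlap an exon on the same strand, 12 reached 1 TPM and 57.5% had 0 counts. The contrast was sharpest among members most of whose words are shared. Of the 111 members with over 50% of words in protein-coding transcripts, 22 overlapped such an exon, and 15 of these had 0 counts, against 0 of the other 89, of which 88 reached 1 TPM. For a member inside an exon the shared words are in part those of the gene around it. RPL12P16, 99.2% identical to RPL12, had 0 counts within an exon of NBEAL1, and RPSAP26, 98.2% identical to RPSA, had 0 counts within an exon of COMMD1. How reads on several overlapping transcripts were counted is not given in the sources used here, and its part in these zeros was not tested.

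Annotation as transcribed did not go with a higher level. Of the 58 transcribed processed pseudogenes, 39.7% reached a mean of 1 TPM, against 54.8% of the 1523 others. They held 0.357% of the counts of all members. RPL36AP21 was the highest, with 212, 148 and 156 counts, followed by RPS18P9 with 161, 183 and 148. RPL26P30 had 62, 117 and 133 counts, RPL6P27 had 63, 107 and 87, and RPL13AP7 had 57, 62 and 96. RPL12P38 had 120, 8 and 82, so that replicate 2 stood apart. RPLP0P2, a copy of the gene of the ribosomal stalk base protein, had 61, 58 and 52 counts and an open reading frame of 318 codons, against 317 in the parent. RPS12P26, RPS27AP16 and RPL23AP53 had means of 25.7 to 27 counts. Several transcripts of these members reach into other exons, with lengths of up to 3525 bases, so their TPM is lowered by length.

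By family, the largest were those of RPL21 with 131 members, RPL23A with 90, RPL7A with 80, RPSA with 72 and RPL31 with 62. The median family had 13 members, and 26 families of at least 20 members held 1146 of the 1581. In the RPL21 family 64 members reached 1 TPM and 16 had 0 counts. In the RPL36A family 43 of 52 reached 1 TPM and 3 had 0 counts, and in the RPS15A family 22 of 27 and 1. In the RPL29 family 11 of 33 reached 1 TPM and 12 had 0 counts. Across families, Spearman's rho between the number of members and their summed counts was 0.511 (n = 78 families), as a description.

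**Figure D3:**
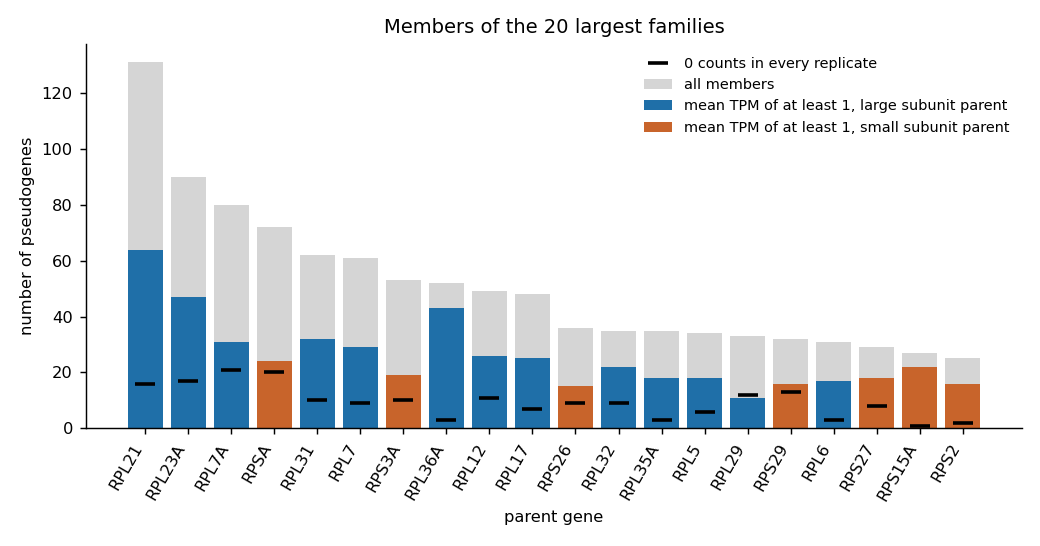
Number of members in the 20 largest families (grey bars), number with a mean TPM of at least 1 (coloured by the subunit of the parent) and number with 0 counts in every replicate (black marks). RPL21 has the most members (131), and RPL36A has 43 of 52 at 1 TPM or more.

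Within a family, 1 member usually held most of the counts. In the 63 families with at least 3 members and a mean of at least 100 counts, the top member held a median of 66.2% of the family's counts, over 50% in 46 families and over 90% in 13. RPS13P2 held 98.7% of the RPS13 family, RPL11P3 98.6% of the RPL11 family, RPS15P4 98.5% of the RPS15 family, RPL13P12 98.3%, RPL3P4 98.3%, RPS23P8 97.5% and RPL36AP37 97.1%. The lowest share was that of RPL19P6, with 29.97% of the RPL19 family. The top member was the one with the highest identity to the parent in 35 of the 63 families and the one with the highest share of words in 38. In the largest families the top members by TPM were RPL21P16 with 562, 619 and 410 TPM, RPL23AP65 with 229, 234 and 211, RPL7AP6 with 1113, 1232 and 1089, RPSAP15 with 257, 351 and 83.6, and RPL31P4 with 476, 522 and 467. RPSA doubles as a laminin-binding protein at the cell surface. RPL7P9 had 676, 699 and 439 TPM, RPL12P47 had 941, 1417 and 699, and RPL17P18 had 401, 542 and 785.

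More counts were assigned to the members than to the genes they were copied from. Parents have several listed transcripts, and how reads on overlapping transcripts were counted is not given. The ratios below are therefore of assigned counts, not of transcript levels. The 78 parent genes together had 27123, 23174 and 32390 counts, and the members 9.60, 10.3 and 9.25 times as many (9.72 ± 0.545, SD, n = 3). Without the RPL36A family the ratio was 7.40 ± 0.188. Per length, on the TPM scale, it was 34.7 ± 2.50. The spread of these ratios over replicates was small beside their distance from 1. In 62 of 78 families the members had more mean counts than the parent, in 61 of them in every replicate, and in 15 families fewer in every replicate. By mean TPM the members were above the parent in 68 families, in 66 of them in every replicate.

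RPL36A had 362, 173 and 566 counts against 65702, 64017 and 67218 on its members. RPL3 had 28, 13 and 42 counts, and its members 14015, 13515 and 17459. RPS15 had 5, 0 and 3 counts, and its members 9753, 9626 and 17771. These 3 parents were far below their members in every replicate. RPL7A had 2, 2 and 6 counts against 5418, 5050 and 7551, RPS13 had 3, 1 and 9 against 4724, 3726 and 5136, and RPS27 had 5, 4 and 10 against 5818, 5734 and 6406. RPS2, a protein at the mRNA entry of the small subunit, had 15, 1 and 9 against 5817, 4979 and 6026. RPS23, RPL10 and RPL10A had 1 count in all 3 replicates together, and their members had means of 5402, 4739 and 3404 counts. At 0 counts in every replicate were 6 parents, RPL13A, RPS18, RPL8, RPS25 and RPS9 among them, and the first 4 of these have members with counts. With the parent set to the floor of 3 counts per library, the ratio was 2646 for RPL13A, 2420 for RPS18 and 193 for RPL8. That floor covers counting error only, not how reads on overlapping transcripts were counted, so these are not lower bounds. Over the 72 families with counts on the parent the median ratio was 20.1, and with the parents at 0 set to that floor it was 22.6 over 77 families.

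**Figure D4:**
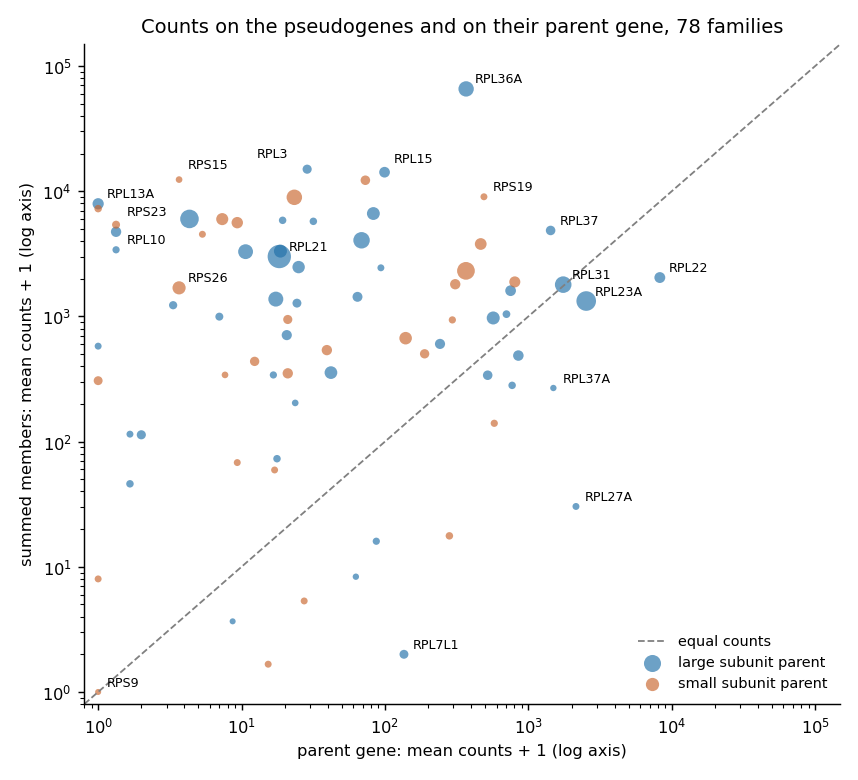
Mean counts plus 1 of the summed members against those of the parent gene, both on log axes, for 78 families. Point area grows with the number of members, the dashed line marks equal counts, and 62 families lie above it, with RPL36A the highest and RPL22 farthest to the right.

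Among the exceptions, the parents with most counts were RPL22, RPL23A, RPL27A and RPL37A. RPL22, an RNA-binding protein of the large subunit, had 8099, 7349 and 9307 counts, and its 22 members 2313, 2205 and 1610. RPL23A, which binds the signal recognition particle at the exit tunnel, had 2656, 2216 and 2719, and its 90 members 1201, 1168 and 1609. RPL27A had 2174, 1869 and 2395 against 24, 35 and 29 on 4 members, and RPL37A had 1405, 1054 and 2019 against 246, 232 and 323 on 2 members. Parent and members did not overlap in these 4 families. RPL36, RPL30, RPL23, RPS3, RPS16, RPLP1, RPL28, RPLP2, RPL7L1 and RPS21 also had more counts than their members. Not all of these parents were well counted. RPLP2 had 8, 2 and 13 counts against 3, 0 and 5 on its member, and RPS21 had 14, 6 and 23 against 1, 0 and 1. The 12 members of RPL7L1 held 3 counts in all, and 10 of them were at 0. The direction depended on the scale in 6 of these families, RPL22, RPL23A, RPL36, RPL30, RPL23 and RPL37A, in which the members were above the parent by mean TPM. For RPL22 this did not hold in replicate 3, with 597 TPM on the members and 677 on the parent, nor for RPL23A in replicate 1, with 572 and 608. RPL31 and its members were near each other, with 1589, 1415 and 2240 counts on the parent and 1672, 1530 and 2177 on the members.

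The counts of a parent went with the way its 3′ end is annotated. In 18 parents the last 300 bases of the canonical transcript all lie in that listed transcript alone, and these parents had a median of 572.5 counts. In 53 parents under 10% of these bases lie in 1 listed transcript alone, and the median was 16 counts. RPL22, RPL23A, RPL27A, RPL37A, RPL31, RPL37 and RPS19 are among the first group, and RPL36A, RPL3, RPL15, RPS15, RPL13A and RPL10 among the second. The groups overlapped. The first also holds RPL32, RPL38 and RPS6, with means of 17.7, 16.7 and 11.3 counts. The second also holds RPL30 and RPS20, with means of 519 and 308. The summed counts of the members had medians of 1184 in the first group and 1275 in the second. The medians were thus far apart for the parents and close for the members. The median ratio of members to parent was 2.03 in the first group and 84.1 in the 47 families of the second with counts on the parent. Counts were made per transcript and 1537 of the members have a single listed transcript. The part of this in the ratios was not tested.

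Replicates ranked the members alike. Spearman's rho between the counts of 2 replicates over the 1581 members lay between 0.906 and 0.910, across genes that are not independent replicates. Over the 194 members with at least 50 counts in every replicate, the SD of TPM was a median of 14.8% of the mean, and counting error alone would give 6.49%. In 121 of them the spread was over 2 times that of counting error. Other nuclear genes of the same minimum had a median of 23.7%, and without mitochondrial genes in the total the medians were 16.1% for members and 13.8% for other genes. Replicate 3 was the lowest for 147 of the 194 members (75.8%) by TPM but for 37 (19.1%) with mitochondrial genes left out.

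On the TPM scale with mitochondrial genes included, the most even members were RPL13P2, RPS3P3, RPL37P23, RPL26P36 and RPS7P10. RPL13P2 had 24.4, 24.1 and 23.7 TPM, RPS3P3 28.3, 27.1 and 27.2, RPL37P23 1487, 1430 and 1511, and RPL26P36 39.4, 38.3 and 37.1. The spread of RPL13P2, RPS3P3 and RPL26P36 was 1.58% to 2.98%, below the 9.95% to 11.2% of counting error alone. Their evenness was therefore not resolved from counting error. With mitochondrial genes left out, replicate 3 was the highest for RPL37P23 (1926, 1690 and 2709 TPM) and RPS7P10 (3475, 3166 and 4536 TPM). Other members changed several-fold between replicates of the same cells. RPL26P6 had 282, 919 and 393 counts, with replicate 2 the highest. RPL17P39 had 1724, 438 and 625 counts, with replicate 1 the highest. RPL24P6 had 402, 616 and 166, RPSAP19 had 293, 1158 and 1073, and RPL10P3 had 2313, 5003 and 2610. The widest swing was that of RPS26P47, picked out once its values were known, with 3629, 11 and 810 counts. Replicate 2 was near 0 for this member, whereas RPS26 itself had 4, 1 and 3 counts. The other 35 members of the RPS26 family together had 188, 206 and 226 counts, without a low value in replicate 2. The family sums of RPL41, with 165, 388 and 55 counts, were also uneven. Those of RPL34, with 1506, 1220 and 2085 counts, differed by 3.25% (SD as a percent of the mean) in TPM with mitochondrial genes included.

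**Figure D5:**
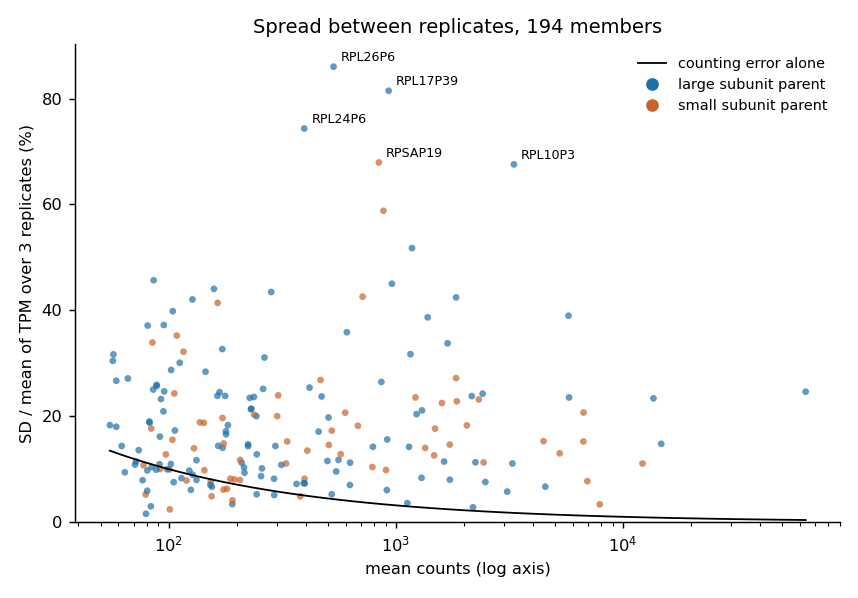
SD of TPM over the 3 replicates as a percent of the mean, against mean counts (log axis), for the 194 members with at least 50 counts in every replicate. The black line is the spread that counting error alone would give; most members lie above it, and RPL26P6, RPL17P39, RPL24P6, RPSAP19 and RPL10P3 lie highest, at 67.6% to 86.0%.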

How the data were processed

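RNA-seq of 3 HEK293T replicates was analysed. The submitters' processing notes name Trimmomatic 0.38.0, HISAT2 2.2.1, featureCounts and hg38, and the counting settings (strand, reads on several transcripts, reads with several matches) are not given in the sources used here. The labels call the material genomic DNA, whereas the protocol and the methods of the study describe total RNA. The count deposited by the authors is a whole number of reads per transcript. In the deposited tables, TPM is this count over the listed transcript length, rescaled to a fixed sum, and recomputing it gave the same values.

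Transcript identifiers without version were matched to GENCODE v44, which matched 223558 of 247541. The 23983 others, copies of pseudoautosomal transcripts on Y included, stayed in the totals only. Counts and TPM were summed per gene. Members were aligned locally to the canonical transcript of their parent (Biopython 1.88), and 31-base words were looked up in protein-coding transcripts. On 200 simulated copies the identity found was within 1 percentage point of that set in 100%. SDs are over replicates (n = 3). The single test was an exact paired permutation test (scipy 1.17.1), also with numpy 2.4.6, pandas 2.3.3, Python 3.11.15 and matplotlib 3.10.9.

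Members and lists were chosen with earlier results of these data known. Named members were the 15 highest by mean TPM, the 10 highest by mean counts, the 10 highest without a shared word, the 10 highest annotated as transcribed, the top member of each of the 10 largest families, and the 5 with the highest and the 5 with the lowest spread among those with at least 50 counts in every replicate. With them their parents were named, and parents with a high ratio whose members held at least 100 counts. RPS26P47, RPS26P58, RPS26P45, RPL10P16, RPL11P3, RPS28P7, RPL39P3, RPL41P1, RPL41P5, RPL12P16, RPSAP26 and RPL19P6 were chosen after their values were seen. A few members, parents and sequences that these rules would name are not reported here. Alternatives were each replicate left out, CPM, mitochondrial genes left out, other thresholds and other word lengths.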

Additional observations from a re-analysis of the deposited data

How the results depend on the processing

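Leaving out 1 replicate moved none of the summary results by more than its SD, or a number of members by more than 1.5 times. For a mean over 3 replicates the first could not come out otherwise, so it is no sign of stability. The mean counts of 6 named members moved by over 1.5 times: RPS26P47 to 410.5, RPL17P39 from 929 to 531.5 and RPL12P38 from 70 to 45 without replicate 1, RPL26P6 from 531 to 337.5 and RPL41P1 to 52 without replicate 2, and RPL17P18 from 1690 to 1081.5 without replicate 3. The share of TPM on the members lay between 12.0% and 14.1%, the share of counts between 3.61% and 3.76%, the number of members at 1 TPM between 830 and 876, the number at 0 counts between 340 and 365, and the ratio of members to parents between 9.43 and 9.96. The share of TPM was 3.68% without division by length and 17.9% with mitochondrial genes left out. The number of members detected was 568 by CPM, 1288 with any TPM, 336 at 10 TPM and 427 at 10 counts in every replicate, against 857. With at most 3 counts in every replicate, 709 members counted as not detected. The top 10 members held 57.7% of the members' TPM. The median share of words among members at 10 TPM or more was 20.8% for 31 bases, 35.0% for 21 bases, 7.37% for 50 bases and 22.6% over all protein-coding transcripts, and among members at 0 counts it was 1.86% for 21 bases. By TPM the ratio of members to parents was 34.7. The difference from other processed pseudogenes was 23.7 percentage points at 10 counts and 25.8 at 1 CPM, and positive under every alternative. No result reversed. Of the mean TPM values of 52 named members, 38 moved by over 1 SD with mitochondrial genes left out. With a single group, replicate numbers pair no samples across groups.

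The annotated ends of many members stop at the coding region, so reads from sequence further 3′ are not in these counts. The levels of the 709 members with at most 3 counts in every replicate are uncertain at this depth.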

Other observations

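Members and processed pseudogenes of other parents were set side by side at the same share of 31-base words in protein-coding transcripts. With no shared word, 27.1% of 431 members and 4.19% of 3315 others reached a mean of 1 TPM. The values were 44.4% and 9.82% with up to 5% of words shared, 70.0% and 20.4% from 5% to 20%, 89.0% and 37.9% from 20% to 50%, and 82.9% and 38.8% above 50%. These are descriptions of 1 condition, and the levels of the parents, which differ between the groups, were not matched.

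Members lay on 24 chromosomes, with the most on chromosome 2 (152) and chromosome 1 (132). Chromosome 11 held 25.8% of the counts of all members on 61 members, most of it on RPL36AP37. Of the genes around intronic members with many counts, ASTN2, around RPL10P3, had 0, 3 and 1 counts, PCNP, opposite RPS18P5, had 0, and TSPAN9, opposite RPS27P3, had 0. The limit given for low counts of genes around members holds here too. ZYG11B, opposite RPS13P2, had 2390, 2157 and 2141 counts, and SMOC1, opposite RPL7AP6, had 1530, 1248 and 1425.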
